A study of Mus musculus with 30 samples.

Results

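A set of 10 genes of the cytosolic heat shock system and of the mitochondrial chaperonin was followed through the development of the mouse dorsal pancreas. They were found by their gene symbol, current or older, in the platform annotation of the 3 chips used. Of the 10 genes, 9 had at least 1 probe set, and these 9 genes had 18 of the 36701 probe sets, 15 on chip A, 1 on chip B and 2 on chip C. Hsp90ab1 was not analysed here. The genes were Hspa8, Hspa4, Hsph1, Hsp90aa1, Dnaja1, Dnajb1, Hspd1, Hspe1 and Hspb1.

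The tissue was the dorsal pancreatic bud of NMRI embryos at e12.5, e13.5, e14.5, e15.5 and e16.5 (embryonic days), with no genetic change or treatment named in the labels. Buds of a litter were combined, and RNA of each pool went through 2 labelling reactions, each read on the whole Affymetrix mouse set of 3 chips (A, B and C), which gave 30 arrays. As each stage is a single pool, the SD given here is that of the labelling reactions, stage and pool cannot be told apart, and p-values measure how 5 pools scatter around a line. Whole buds were used, so fewer cells of a type and less RNA per cell cannot be told apart. All values are log2 expression values made with RMA, which sets the arrays of a chip to a common distribution.

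The median of an array was 5.71 to 5.76 on chip A, 5.26 to 5.31 on chip B and 3.99 to 4.02 on chip C. Reactions of the same pool had correlations across probe sets of 0.996 to 0.998. The labelled tissue was checked by its markers. Of 12 markers of pancreatic epithelium all 12 lay at or above the median of their chip, with 9 rising and 1 falling over the stages. Markers of mesenchyme gave 1 rise and 3 falls among 9, red cells 2 and 3 among 6, endothelium 1 and 2 among 6, neural crest and neurons 0 and 3 among 4, and leukocytes 1 and 1 among 7. Between the first and the last stage the summed linear signal of the epithelial markers on chip A moved from 1219 to 31514, that of the mesenchyme markers from 5342 to 4436 and that of the red cell markers from 18546 to 8133. That of endothelium went from 582 to 507, that of the 1 neural marker on chip A from 207 to 55.8 and that of leukocytes from 501 to 1277, with 481 at e15.5. Such a sum is set mostly by its brightest genes, and the genes within a sum moved unlike each other. On the fitted line the log2 changes in the epithelial sum ranged from -0.05 (Pdx1) to 7.53 (Ins2). Within that range Cdh1 had 0.39 and Ctrb1 5.44. In the red cell sum they ranged from -5.52 (Hbb-y) to 1.77 (Alas2), with 0.62 for Hba-a1. The sums therefore do not measure the share of a cell type. The part of these shifts in the chaperone results was not tested.

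Heat shock chaperones bind unfolded or newly made proteins and use ATP to help them fold. HSP70 proteins such as the constitutive Hspa8 are handed their substrates by J-domain partners (Dnaja1, Dnajb1), and HSP110 proteins (Hspa4, Hsph1) act as their nucleotide exchange factors. HSP90 (Hsp90aa1) takes over kinases, receptors and other clients late in folding, the Hspd1 and Hspe1 rings fold proteins inside mitochondria, and the small heat shock protein Hspb1 holds unfolded proteins without ATP. Heat shock factors switch many of these genes on through heat shock elements, runs of the letters GAA and their inverted repeat TTC spaced by any 2 bases.

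Those letters were looked for in the promoter windows of the genes. Windows from RefSeq on GRCm38.p6, covering 250 bases before to 50 after a start site, were at hand for 7 of the genes, with 12 windows in all. Hspa8 and Hsp90aa1 had none in the table. GAANNTTC or TTCNNGAA, each its own reverse complement and so the same on both strands, stood in 6 of the 12 windows, against 15.1% of all 32851 windows. The 6 windows belong to Hsph1, Hspd1, Hspe1, Dnaja1 and Hspb1, those of Hsph1 overlap each other, and those of Hspd1 and Hspe1 share 1 place in the genome. The 3-unit forms, in which a further repeat follows after 2 more bases and which contain the shorter forms, stood in 4 of the 12 windows (Hsph1, Hspd1 and Hspe1), against 0.603% of all windows. Of the 4 genes with a window that fell over the stages 2 carried a run (Hsph1 and Dnaja1), and of the 3 that did not pass all 3 did. A match is a run of letters and not a measured binding site.

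The windows below show these runs in capitals, and that of Hspa4 is shown as one in which no such run was found. They lie at chr5:149636287-149636586 (minus strand) for Hsph1, chr1:55087898-55088197 (plus) for Hspe1, chr4:40722218-40722517 (plus) for Dnaja1, chr5:135887669-135887968 (plus) for Hspb1 and chr11:53300430-53300729 (minus) for Hspa4.
Hsph1: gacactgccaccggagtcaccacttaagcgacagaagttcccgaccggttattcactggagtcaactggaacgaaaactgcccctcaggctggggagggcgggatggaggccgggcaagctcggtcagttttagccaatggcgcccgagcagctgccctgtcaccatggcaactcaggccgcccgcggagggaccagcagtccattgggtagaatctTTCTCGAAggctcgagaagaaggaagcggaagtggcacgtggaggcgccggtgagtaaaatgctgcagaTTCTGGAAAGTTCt
Hspe1: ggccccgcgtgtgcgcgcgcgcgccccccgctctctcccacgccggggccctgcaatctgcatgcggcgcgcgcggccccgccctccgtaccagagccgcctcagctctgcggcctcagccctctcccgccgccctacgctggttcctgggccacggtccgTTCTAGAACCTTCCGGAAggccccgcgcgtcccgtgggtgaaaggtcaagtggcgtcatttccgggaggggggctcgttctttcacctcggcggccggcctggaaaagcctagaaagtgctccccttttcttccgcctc
Dnaja1: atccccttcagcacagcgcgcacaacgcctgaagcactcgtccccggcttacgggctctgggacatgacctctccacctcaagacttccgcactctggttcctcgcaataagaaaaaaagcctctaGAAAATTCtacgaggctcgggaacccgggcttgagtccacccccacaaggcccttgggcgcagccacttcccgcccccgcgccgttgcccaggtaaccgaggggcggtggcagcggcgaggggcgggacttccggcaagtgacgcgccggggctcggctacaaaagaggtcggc
Hspb1: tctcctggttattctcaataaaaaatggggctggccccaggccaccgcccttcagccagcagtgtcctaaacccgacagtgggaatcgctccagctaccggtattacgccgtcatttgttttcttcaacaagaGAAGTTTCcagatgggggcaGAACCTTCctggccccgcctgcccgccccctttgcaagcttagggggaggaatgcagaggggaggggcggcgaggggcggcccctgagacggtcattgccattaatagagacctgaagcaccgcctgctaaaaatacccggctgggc
Hspa4: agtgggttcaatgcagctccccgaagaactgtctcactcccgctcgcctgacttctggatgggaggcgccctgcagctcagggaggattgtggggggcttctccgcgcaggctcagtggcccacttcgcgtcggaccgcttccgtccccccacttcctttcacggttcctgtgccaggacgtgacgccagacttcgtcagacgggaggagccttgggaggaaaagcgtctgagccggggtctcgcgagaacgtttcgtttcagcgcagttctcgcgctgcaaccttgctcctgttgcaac

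Hspd1 and Hspe1 lie head to head on chromosome 1, Hspd1 at 55077833 to 55088243 and Hspe1 at 55088148 to 55091317. Counted from base 1 at the start site, the run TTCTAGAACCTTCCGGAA lies at -89 to -72 of Hspe1. It is the same stretch of genome, at 55088059 to 55088076, as the run TTCCGGAAGGTTCTAGAA at -144 to -127 of the second Hspd1 window, read on the opposite strand, since these windows overlap by 285 bases. In Hsph1 the shorter run TTCTCGAA lies at -33 to -26. The longer, TTCTGGAAAGTTC, lies at 37 to 49, after the start site of the window shown. Both runs lie within the annotated span of the gene, which begins farther upstream than that start site. Dnaja1 has 1 run in the first of its 3 windows, GAAAATTC at -124 to -117, and Hspb1 has 2 separate ones, at -117 to -110 and at -97 to -90. Neither window of Dnajb1 held one. On either strand, CCAAT was found in 6 of the 12 windows and 37.4% of all windows, GGGCGG in 11 and 35.7%, and TATAAA in 0 and 13.6%.

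The first comparison asked which of these transcripts rose or fell steadily over the 5 stages. Hsph1, Hspa8, Hspa4, Hsp90aa1, Dnaja1 and Dnajb1 each fell on 1 probe set, by 1.75-fold to 3.08-fold over 4 days on the fitted line. Hspd1, Hspe1 and Hspb1 had no passing slope, and no probe set of the group rose. The test was limma's slope over embryonic day on the 5 pool means, fitted on all probe sets, with Benjamini-Hochberg adjusted p under 0.05 over the 3 chips. So 6 of 18 probe sets fell (33.3%), where 13.1% of all probe sets fell and 10.6% rose. The genes were chosen with earlier results of these data known. Counts of the group beside all probe sets are therefore a description and no independent test. Of the 14 that lay at or above the median of their chip 6 fell, where 19.2% of all such probe sets fell. The median change was -0.38 over the 18 and 0.03 over all probe sets. Without the e16.5 pool 3 of the 6 calls were left, those of Hsph1, Hspa4 and Dnaja1, and the count over all probe sets dropped from 4825 to 2278.

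**Figure D1:**
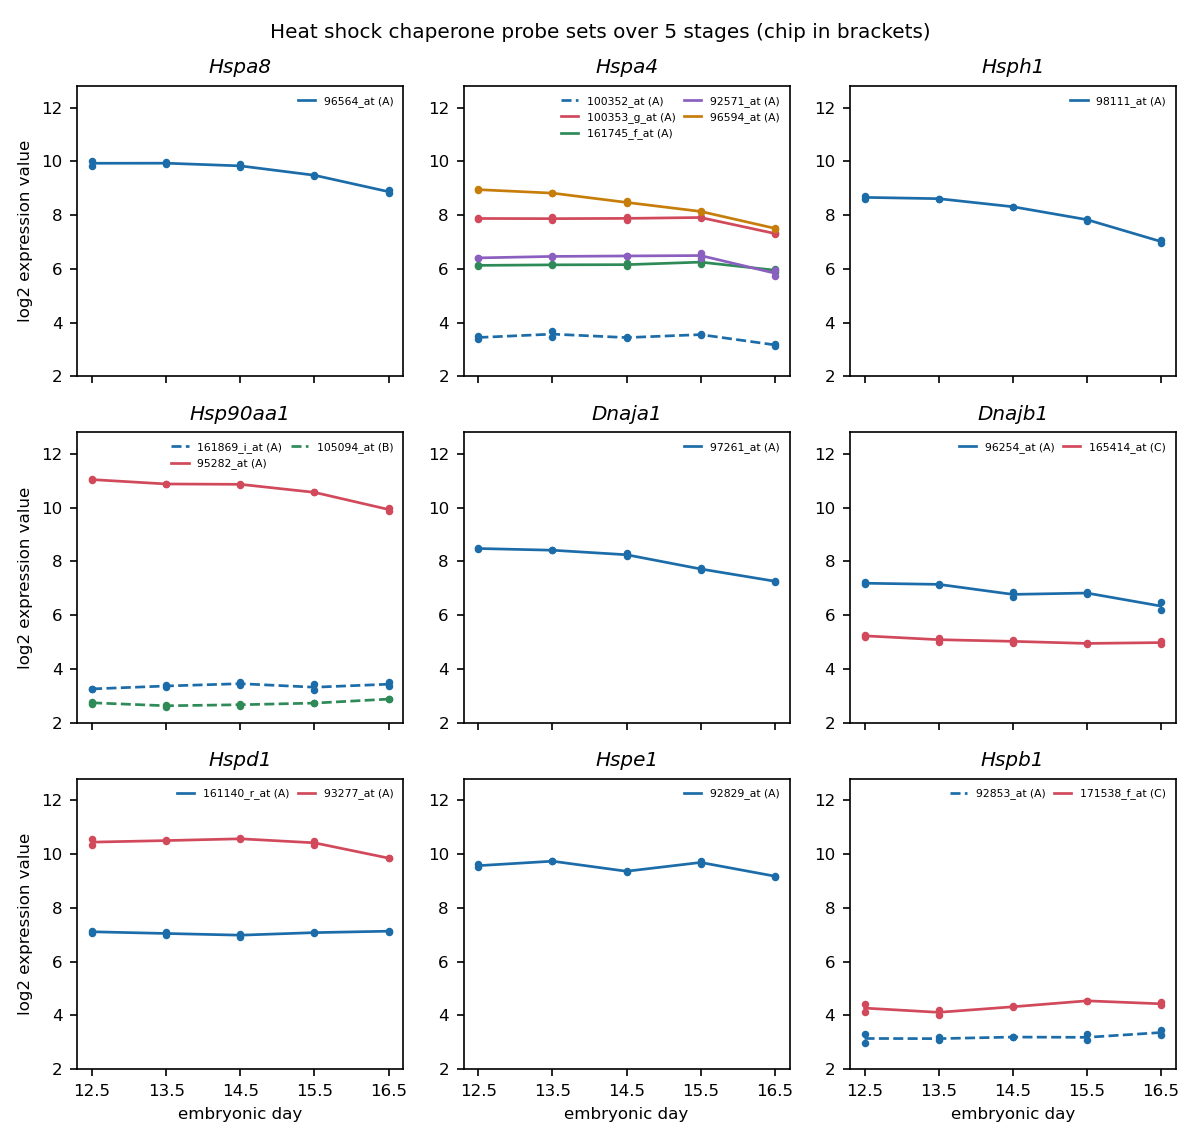
Log2 expression value (vertical axis) against embryonic day for the 18 probe sets, 1 panel per gene. Points are the 2 labelling reactions, lines join their means, and dashed lines mark the 4 probe sets below the median of their chip. In 12 probe sets both e16.5 points lie below all earlier points, against 17.6% of all probe sets. Both Hspb1 probe sets stay between 2.96 and 4.54.

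The HSP70 and HSP110 genes come first. Hspa8 encodes the constitutive HSP70 of the cytosol and lies on chromosome 9, 40801276 to 40805202 on GRCm38.p6. Its probe set read 9.83 and 10.02 at e12.5, 9.89 and 9.97 at e13.5, 9.88 and 9.77 at e14.5, 9.49 and 9.47 at e15.5 and 8.93 and 8.81 at e16.5. The e14.5 arrays reached into the range of e12.5, and the arrays of e15.5 and e16.5 lay below all earlier ones. Hspa8 fell by 1.02 ± 0.21 (log2 units on the fitted line between first and last day, ± SE over 5 pools, limma adjusted p = 0.0175). The fit gave -0.99 (adjusted p = 0.0533) without the e13.5 pool and -0.57 (adjusted p = 0.092) without the e16.5 pool, so this call needs both.

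Hsph1, which encodes the HSP110 protein once called Hsp105 (chromosome 5, 149616843 to 149636498), had the largest fall of the group. It read 8.59 and 8.72 at e12.5, 8.61 and 8.60 at e13.5, 8.31 and 8.30 at e14.5, 7.87 and 7.79 at e15.5 and 6.97 and 7.06 at e16.5. The first 2 stages overlapped, and each later stage lay below the one before with no overlap. Hsph1 fell by 1.63 ± 0.24 (adjusted p = 0.0057), which left 32.0% of the e12.5 signal at e16.5.

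Hspa4, the other HSP110 gene (chromosome 11, 53259814 to 53300479), had 5 probe sets on chip A, and they did not move alike. The brightest read 8.97 and 8.92 at e12.5, 8.82 and 8.81 at e13.5, 8.43 and 8.51 at e14.5, 8.12 and 8.15 at e15.5 and 7.53 and 7.48 at e16.5, lower at each stage than at the one before. It fell by 1.42 ± 0.16 (adjusted p = 0.0022), with the lowest adjusted p of the group. On the second brightest, whose identifier ends in _g_at, the same arrays read 7.88 and 7.87, 7.93 and 7.80, 7.83 and 7.92, and 7.92 and 7.90 at the first 4 stages, and 7.30 and 7.33 at e16.5. Its first 4 stages lay between 7.80 and 7.93 and e16.5 below all of them, and its slope did not pass (-0.43 ± 0.20, adjusted p = 0.169). It passed with 10 arrays and the pool as a random block (adjusted p = 0.0493), where labelling reactions of 1 pool count as separate values. In that setting 6208 of all probe sets fell, against 4825 in the main fit. The third brightest had the same shape, with pool means between 6.41 and 6.49 up to e15.5 and 5.84 ± 0.17 (SD of 2 labelling reactions) at e16.5 (change -0.44 ± 0.23, adjusted p = 0.207). The changes were -0.10 ± 0.13 for the fourth, an _f_at probe set, and -0.23 ± 0.15 for the dimmest, which lay below the median of the chip.

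The gap between the brightest and the second brightest Hspa4 probe set narrowed from 1.07 ± 0.03 at e12.5 to 0.95 ± 0.09, 0.59 ± 0.00, 0.23 ± 0.04 and 0.19 ± 0.05 at the later stages (difference of log2 values ± SD). These probe sets were set side by side after their values were seen, so the difference was not tested. On Affymetrix chips the endings _g_at and _f_at mark probe sets shared by similar sequences, and _i_at and _r_at mark probe sets made from fewer or relaxed probes. In all 5 Hspa4 probe sets both e16.5 arrays lay below the 8 earlier ones.

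Both J-domain genes fell on their bright chip A probe set. Dnaja1, which stimulates the ATPase of HSP70 (chromosome 4, 40722468 to 40734965), read 8.47 and 8.49 at e12.5, 8.43 and 8.41 at e13.5, 8.30 and 8.20 at e14.5, 7.74 and 7.70 at e15.5 and 7.28 and 7.25 at e16.5. The stages did not overlap, and Dnaja1 fell by 1.25 ± 0.18 (adjusted p = 0.00508). It was the gene of the group with the largest difference at e15.5 against e14.5, -0.53, ahead of -0.46 at the last step. The first of its windows carries the run GAAAATTC shown above.

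Dnajb1, the HSP40 partner whose mRNA heat shock raises (chromosome 8, 83608175 to 83612653), read 7.16 and 7.22 at e12.5, 7.13 and 7.16 at e13.5, 6.67 and 6.88 at e14.5, 6.84 and 6.80 at e15.5 and 6.48 and 6.20 at e16.5 on the brighter of its probe sets. Levels at e14.5 and e15.5 overlapped, below those of the first 2 stages and above those at e16.5. Dnajb1 fell by 0.81 ± 0.15 (adjusted p = 0.0115), and without the e16.5 pool the change was -0.59 (adjusted p = 0.0854). A second probe set, on chip C, read 5.23 ± 0.06 at e12.5 and 4.98 ± 0.06 at e16.5, a change of -0.26 ± 0.08 that missed the threshold (adjusted p = 0.0546). Its adjusted p was under 0.05 in 5 of 23 alternatives.

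Hsp90aa1 encodes the inducible HSP90 of the cytosol (chromosome 12, 110691036 to 110696395). Its bright probe set, in the 98.9th percentile of chip A, read 11.02 and 11.07 at e12.5, 10.89 and 10.87 at e13.5, 10.84 and 10.90 at e14.5, 10.57 and 10.57 at e15.5 and 9.98 and 9.88 at e16.5. Only e13.5 and e14.5 overlapped, and 46.3% of the e12.5 signal was left at e16.5. Hsp90aa1 fell by 1.01 ± 0.20 (adjusted p = 0.0144), and without the e16.5 pool the change was -0.57 (adjusted p = 0.0552). The other probe sets, an _i_at on chip A and one on chip B, lay in the 11.9th and 1.21st percentile of their chip with changes of 0.12 ± 0.10 and 0.15 ± 0.11. No detection calls come with the values, so a dim probe set is not shown to measure the gene.

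Neither mitochondrial chaperonin gene passed the test, and both had their lowest values on the last day on the bright probe set. Hspd1 (HSP60) on its brighter probe set read 10.34 and 10.54 at e12.5, 10.51 and 10.48 at e13.5, 10.59 and 10.55 at e14.5, 10.50 and 10.33 at e15.5 and 9.84 and 9.85 at e16.5. The first 4 stages lay between 10.33 and 10.59 and e16.5 below all of them, yet the slope did not pass (-0.51 ± 0.22, adjusted p = 0.14). With 10 arrays and the pool as a random block it did (adjusted p = 0.0409). There labelling reactions count as separate values, and 6208 of all probe sets fell, against 4825. Its other probe set, an _r_at, lay between 6.93 and 7.15 on all arrays, with a change of 0.03 ± 0.10.

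Hspe1 (HSP10), the lid of that ring, read 9.51 and 9.62 at e12.5, 9.73 and 9.73 at e13.5, 9.37 and 9.34 at e14.5, 9.74 and 9.63 at e15.5 and 9.19 and 9.16 at e16.5. It was lower at e14.5 than at either neighbouring stage and lowest at e16.5, and its slope did not pass (-0.33 ± 0.21, adjusted p = 0.283). The Hspd1 value minus the Hspe1 value was 0.88 ± 0.06 at e12.5, 0.77 ± 0.02 at e13.5, 1.21 ± 0.01 at e14.5, 0.73 ± 0.05 at e15.5 and 0.67 ± 0.03 at e16.5. The e14.5 pool stood apart in this difference by more than the labelling spread, with 1 pool behind it.

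Hspb1, the small heat shock protein also called Hsp25 (chromosome 5, 135887919 to 135889563), had 1 dim probe set, in the 8.56th percentile of chip A, and 1 in the 56.2nd percentile of chip C. The dim one had pool means between 3.13 ± 0.09 and 3.36 ± 0.14, and its change was 0.20 ± 0.10 (adjusted p = 0.186). That on chip C, an _f_at, had pool means of 4.27 ± 0.23, 4.11 ± 0.12, 4.32 ± 0.03, 4.54 ± 0.00 and 4.43 ± 0.07 and a change of 0.30 ± 0.12 (adjusted p = 0.11). The reactions at e12.5 differed by 0.36 on the first and 0.32 on the second. The result turned on which e12.5 reaction was left out. On chip A the change was 0.34 (adjusted p = 0.0467) without replicate 1 and 0.05 (adjusted p = 0.793) without replicate 2. On chip C it was 0.17 (adjusted p = 0.436) without replicate 1 and 0.43 (adjusted p = 0.0282) without replicate 2.

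**Figure D2:**
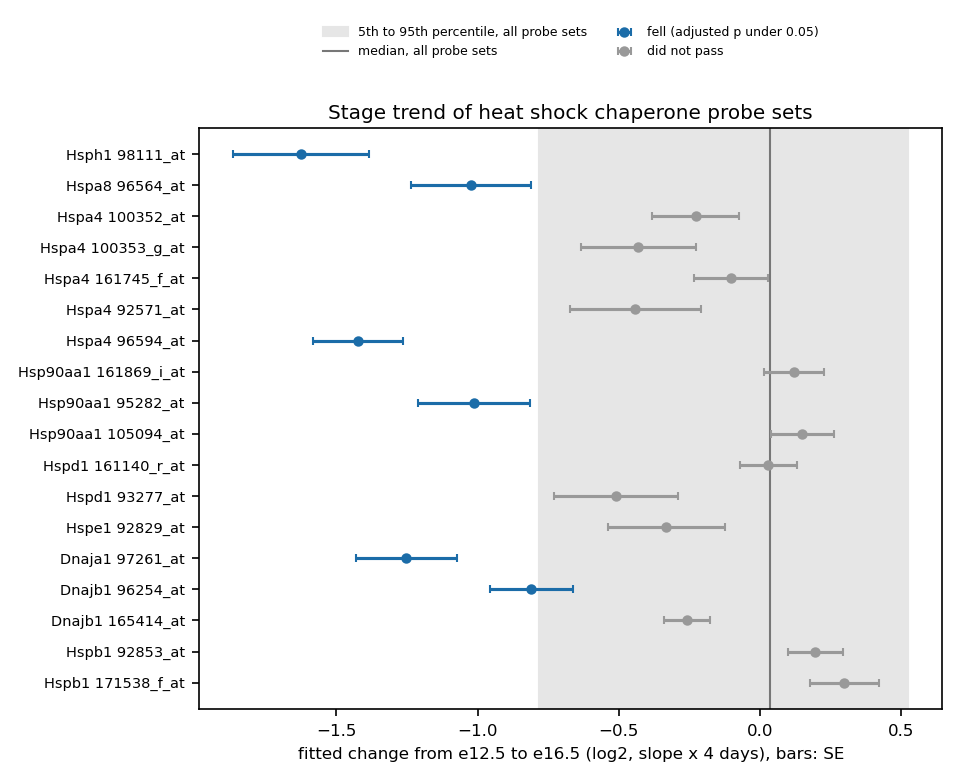
Fitted log2 change from e12.5 to e16.5 (horizontal axis, slope times 4 days, bars are SE) for the 18 probe sets. The grey band runs from -0.78 to 0.53, the 5th to 95th percentile of all 36701 probe sets, and the line is their median. The 6 falling probe sets lie left of the band, and every probe set that did not pass lies inside it.

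A curve over the stages was tested next, since a line misses a peak or dip in the middle stages. The curve term was the fitted middle minus the mean of both ends in a quadratic limma fit on the pool means. It passed for 1 of 18 probe sets, that of Hsph1 (0.49 ± 0.07, adjusted p = 0.0457), with the middle above the mean of both ends. So did 0.294% of all probe sets. For Hsph1 this was no peak: its pool means of 8.66, 8.61, 8.31, 7.83 and 7.02 fell at each stage, by more at each step. None passed with the middle below the mean of both ends, as did 0.213%. Hspa8 gave 0.42 ± 0.07 (adjusted p = 0.0704), Hspd1 0.42 ± 0.09 (adjusted p = 0.102) and the third brightest Hspa4 probe set 0.41 ± 0.11 (adjusted p = 0.18). The Hsph1 call was not stable. It was lost in 14 of 23 alternatives, among them median centring (adjusted p = 0.0647) and cyclic loess (adjusted p = 0.0573).

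Day by day, the step to e16.5 was the largest for most of the group. With 1 pool per stage these steps carry no test, and a step was counted at 1.5-fold or more with no overlap of the reactions. No probe set of the group made such a step at e13.5, e14.5 or e15.5, against 0.526%, 0.245% and 0.657% of all probe sets downward. At e16.5 against e15.5, 6 of 18 were lower by that much, against 1.68% of all probe sets: Hsph1 (-0.81), Hsp90aa1 (-0.64), Hspa8 (-0.61) and Hspa4 on its brightest (-0.63), the second brightest (-0.59) and the third brightest probe set (-0.65). Lower by less than 1.5-fold, and so not counted, were among others Hspd1 (-0.57), Hspe1 (-0.51), Dnajb1 (-0.48) and Dnaja1 (-0.46). The count was 3 after a further quantile normalization and 2 with cyclic loess, and the share of all probe sets in these settings is not given here. It was 12 of 18 at 1.2-fold, which 10.3% of all probe sets reached. At 2-fold it was 0 (0.114%). At 1.2-fold 4 were lower at e14.5 (3.19%), and at e15.5 5 were lower (5.64%) and 1 higher (4.9%). None was higher by 1.5-fold at any step, where 0.294%, 0.294%, 0.916% and 0.665% of all probe sets were.

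The median of the last step was -0.47 over the 18 probe sets and 0.01 over all. In the 6 falling probe sets the last step made up from 37.4% (Dnaja1) to 57.8% (Hspa8) of the difference between e12.5 and e16.5. Both e16.5 arrays lay below all 8 earlier arrays in 12 of the 18 probe sets, of Hsph1, Hspa8, Hspa4, Hsp90aa1, Hspd1, Hspe1, Dnaja1 and Dnajb1, against 17.6% of all probe sets. Of the 14 at or above the median of their chip 11 did so, against 5002 of all 18351 such probe sets. These counts were chosen after the values were seen. In 4 of the 18 each pool mean was below the one before, as in 8.39% of all. Those 4 were among the 14, and 2293 of the 18351 did so. These low values at e16.5 rest on 1 pool. In that pool the summed leukocyte signal was 1277 against 481 at e15.5, with a median last step of 0.96 over its 7 markers. The medians of the last step were 0.13 for epithelium, -0.12 for mesenchyme, 0.05 for red cells, 0.08 for endothelium and -0.07 for neural crest and neurons. Their part in the chaperone values at e16.5 was not tested.

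**Figure D3:**
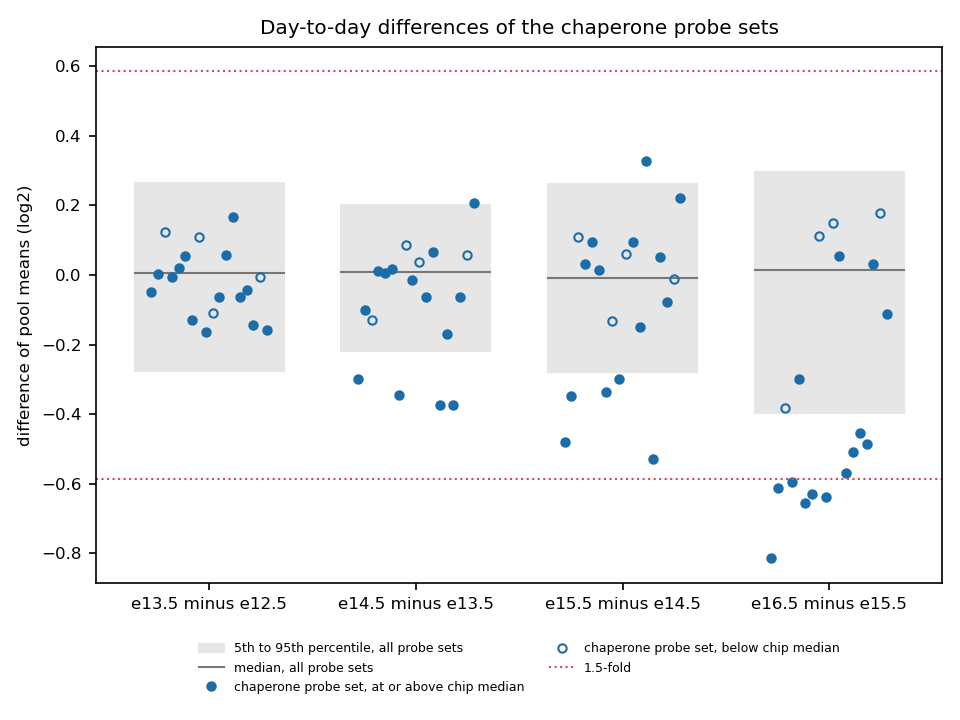
Difference of pool means between neighbouring stages (vertical axis, log2) for the 18 probe sets, filled where at or above the median of their chip and open where below. Grey boxes run from the 5th to the 95th percentile of all probe sets and dotted lines mark 1.5-fold. At e16.5 minus e15.5 most filled points sit below the box, whose lower edge is at -0.40, while at e13.5 minus e12.5 all points sit inside it.

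Differences between genes within an array were compared over the stages, as a description. The Hsp90aa1 value minus the Hspa8 value was 1.12 ± 0.10, 0.95 ± 0.07, 1.04 ± 0.12, 1.09 ± 0.02 and 1.06 ± 0.01 from e12.5 to e16.5, a range of 0.17. The Hsph1 value minus the Hspa8 value was -1.27 ± 0.04 at e12.5 and then -1.32 ± 0.06, -1.52 ± 0.07, -1.65 ± 0.04 and -1.85 ± 0.14, so Hsph1 ended lower against Hspa8 than it began. These differences show how the ratio of signals moved, not the ratio of the transcripts.

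By shape over the 5 stages, the named probe sets of chip A most like Hsph1 were those of Capn6, Cdca7, Basp1 and Spin1, out of 5623 at or above the median. Their root mean square differences from Hsph1, each profile centred on its mean, were 0.053, 0.058, 0.066 and 0.069. Capn6 encodes a calpain without protease activity and Cdca7 a cell cycle gene that MYC and E2F switch on. Among the group itself, the brightest probe set of Hspa4 ranked 24th (0.113), Dnaja1 62nd (0.161), Hspa8 146th (0.215) and Hsp90aa1 179th (0.233). The others lay farther off, with Dnajb1 540th, Hspd1 924th and 3473rd, Hspe1 1686th and the remaining Hspa4 probe sets at or above the median 1137th, 1195th and 2386th.

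The wider chaperone network was followed through lists of related genes, each gene by its brightest probe set, where 17.0% of all 15964 genes fell and 11.9% rose. The lists too were chosen with earlier results of these data known, so their counts are a description. Of 19 HSP90 cochaperone genes 9 fell and none rose, with a median change of -0.46. Changes were -1.17 ± 0.17 for the cyclophilin gene Ppid, -0.90 ± 0.12 for the ATPase activator gene Ahsa2 and -0.76 ± 0.20 for the immunophilin gene Fkbp4, the last on a probe set shared by similar sequences. Stip1, which links HSP70 to HSP90 and is named after its value was seen, had a change of -1.09 ± 0.34 (adjusted p = 0.0582). Of 19 other J-domain genes 6 fell and 3 rose (median -0.41), with falls in Dnajc8 (-1.13 ± 0.14, an _f_at probe set), Dnajb4 (-0.81 ± 0.18) and Dnajc14 (-0.68 ± 0.12). The cochaperone count was 4 without the e13.5 pool and 3 without the e16.5 pool, and the J-domain count 1 without the e16.5 pool and 11 with 10 arrays and the pool as a random block. In that last setting 6208 of all probe sets fell, against 4825 in the main fit.

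Of 9 genes that regulate HSP70 3 fell, which were Bag6 (-0.87 ± 0.23, a _g_at probe set), St13 (-0.54 ± 0.12) and Bag2 (-0.37 ± 0.11), and none rose (median -0.13). Of 15 genes of the cytosolic chaperonin TRiC and of prefoldin 5 fell and none rose (median -0.35). Its members named by size were the prefoldin genes Pfdn4 (-0.78 ± 0.20) and Pfdn2 (-0.73 ± 0.20) and the ring subunit gene Cct8 (-0.71 ± 0.18). The HSP70 regulator count was 0 without the e13.5 or the e16.5 pool. The chaperonin count was 1, 2 and 0 without the e12.5, e13.5 and e16.5 pools, 3 with cyclic loess and 8 with the pool as a random block. More of all probe sets fell in that last setting too.

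Of the other HSP70 and HSP110 genes none of 9 passed, with a median of -0.19. The heat-inducible Hspa1a and Hspa1b are also named after their values were seen. Hspa1a had a change of -0.25 ± 0.15 and Hspa1b of -0.27 ± 0.11, and Hspa1b lay below the median of its chip. With 10 arrays and the pool as a random block, which raised the count over all probe sets too, 2 of this list fell by limma. Small heat shock proteins had 4 rises and 1 fall in 9 genes (median 0.22), led by Hspb6 (0.92 ± 0.13) and Hspb8 (0.60 ± 0.14), while Hspb11, which is a part of cilia transport rather than a heat shock protein, fell by 0.45 ± 0.09. Of 14 other mitochondrial chaperones and proteases 1 fell, Yme1l1 (-0.57 ± 0.11, below the median of its chip), and the mitochondrial HSP70 gene Hspa9, named after its value was seen, had a change of -0.11 ± 0.13. The small heat shock protein rises were 1 without the e13.5 or the e16.5 pool and 2 without the e14.5 pool.

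Of 3 genes of heat shock factors and their binding protein 2 fell. Hsf2, a heat shock factor active in development, had pool means of 4.86 at first and 3.83 at the end and fell by 1.00 ± 0.10, below the median of its chip. Hsbp1, which binds heat shock factor trimers, fell by 0.58 ± 0.13. The count was 1 without the e13.5 or the e16.5 pool. It was also 1 with bright probe sets only, a setting that leaves out dim probe sets such as that of Hsf2. Hsf1 was not analysed here.

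Chaperones of the endoplasmic reticulum fold secreted proteins, and their list also holds genes that are not chaperones, such as Herpud1. Of its 20 genes 9 rose and 1 fell (median 0.47), led by Herpud1 (2.78 ± 0.38), Dnajc3 (2.58 ± 0.34) and Sdf2l1 (2.14 ± 0.32). The falling gene was Serpinh1, the collagen chaperone, named after its value was seen (-1.25 ± 0.16). The reticulum's HSP70 and HSP90, Hspa5 (0.43 ± 0.17, adjusted p = 0.11) and Hsp90b1 (0.49 ± 0.15, adjusted p = 0.057), did not pass, and they too were picked after their values were seen. That cytosolic and reticulum chaperones differ was not tested as such.

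Lists of genes for cell division and for the handling of tissue were read beside the chaperones. Of 19 cell cycle and replication genes 6 fell and none rose (median -0.76), among them Mcm4 (-1.29 ± 0.28), Pcna (-1.18 ± 0.25) and Bub1 (-1.16 ± 0.26), and their median last step was -0.79. The count was 0 without the e13.5 pool, 2 without the e16.5 pool, 11 without the e15.5 pool and 13 with the pool as a random block. More of all probe sets fell in that last setting too. The summed signal of the cell cycle and replication genes on chip A lay between 6919 and 7565 up to e15.5 and was 4036 at e16.5. Of 17 genes that handling of tissue can switch on 2 rose and 1 fell, where 11.9% of all genes rose and 17.0% fell. The rises were Btg2 (0.82 ± 0.15) and Gadd45b (0.82 ± 0.16) and the fall was Jun (-0.95 ± 0.16). The summed signal of these 17 lay between 3476 and 3931. The part of either in the chaperone results was not tested.

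**Figure D4:**
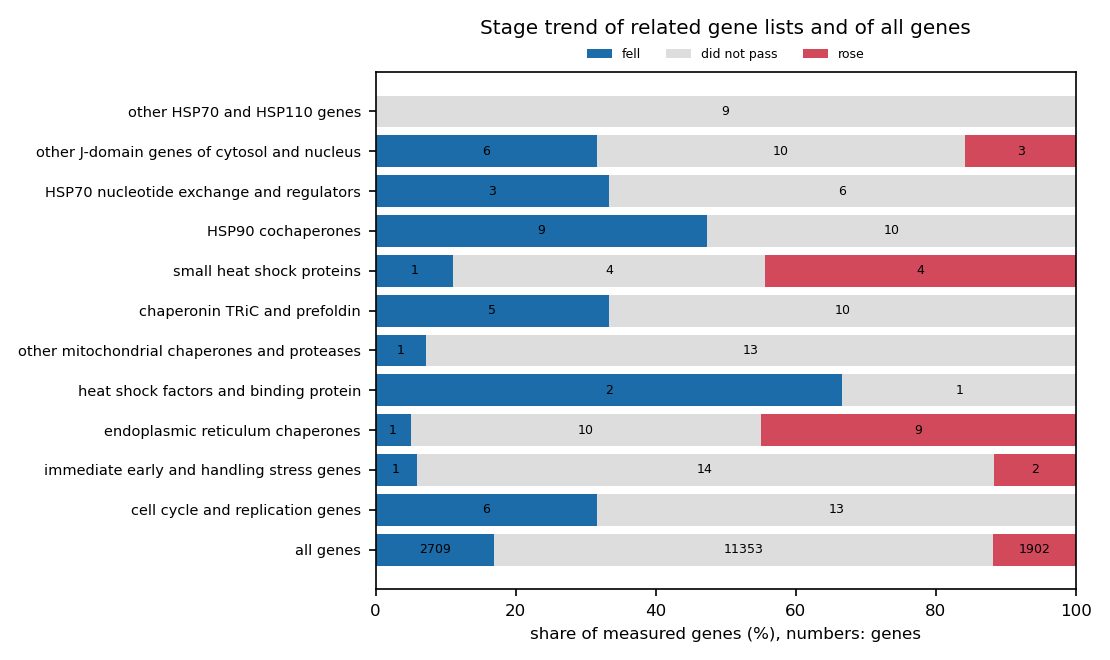
Share of the measured genes of each list (horizontal axis, percent) that fell, did not pass or rose in the stage trend, with gene counts in the bars and all 15964 genes at the bottom. The bar of HSP90 cochaperones holds 9 falling genes of 19 and no rising one, and that of endoplasmic reticulum chaperones holds 9 rising genes of 20.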

How the data were processed

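The deposited values are log2 expression values that the submitters' processing notes say were made with RMA. Software and version are not given in the sources used here, and the log base was read from the range of the values. RMA removes differences in overall brightness, so a change in total RNA per cell cannot be seen, and each chip was treated as normalized on its own. Names came from the platform annotation in GEO, updated through Entrez identifiers to RefSeq on GRCm38.p6; 29131 of 36701 had 1 symbol, 724 several and 6846 were unnamed here. No value filter was used and no sample was left out.

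Reactions were averaged per stage. limma 3.58.1 in R 4.3.3 fitted a line, and for the curve a quadratic, to the 5 pool means of each chip. Benjamini-Hochberg adjustment ran over all 36701 probe sets (threshold 0.05). The functions were tested on simulated data. The replicate number marks a labelling reaction and did not pair the arrays: differences between reactions correlated between stages at -0.18 to 0.11.

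The genes and lists were chosen with earlier results of these data known. The naming rule takes all probe sets of the group, up to 3 passing genes with the largest change per list, and the 4 profiles nearest to the gene with the largest range. Symbols that the annotation did not match were left out.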

Additional observations from a re-analysis of the deposited data

How the results depend on the processing

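Of 410 refits of single probe sets in the stage trend 397 kept the call, 4 lost it and 9 gained one. Hsph1, the brightest Hspa4 probe set and Dnaja1 fell in all 23 alternatives. The falling count of 6 was 3 without the e16.5 pool and 6 to 7 when a labelling reaction was left out, and the rising count was 0 to 1. No called result changed its direction. All 4 other Hspa4 probe sets, none of them called, had a change above 0 in at least 1 alternative. Over all probe sets the falling count of 4825 was 2278 without the e16.5 pool and 4439 to 4999 without a labelling reaction. With 10 arrays and the pool as a random block it was 6208, and 6011 with a replicate block added. The rising count of 3886 was 1275 without that pool, 1874 without the e12.5 pool, 2207 without the e13.5 pool and 3328 to 4035 without a labelling reaction. With bright probe sets only it was 2144, but that setting leaves out the dim probe sets, so its base is smaller. Of the 18351 probe sets at or above the median of their chip, 2159 rose in the main fit.

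The curve count of 1 was 8 with 10 arrays and the pool as a random block, 7 with a replicate block added, 5 without the e15.5 pool, 2 with p adjusted within chips and 0 to 2 without a labelling reaction. The share of 0.294% of all probe sets belongs to the main fit, and that in these settings is not given here. The curve count was 0 with bright probe sets, cyclic loess, median centring, an intensity trend, and without the e12.5, e13.5, e14.5 or e16.5 pool. With the replicate block the 6 falling probe sets kept their call and a further one gained it, the second Dnajb1 probe set (adjusted p = 0.0317).

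The chaperone lists without that of the endoplasmic reticulum hold 97 genes. In the reticulum list 9 of 20 genes rose and 1 fell. Over all genes 17.0% fell and 11.9% rose. Of the 97 genes 27 fell. That count was 41 with 10 arrays and the pool as a random block, 11 without the e13.5 pool and 5 without the e16.5 pool. Over all probe sets the falling count of 4825 was 6208, 3301 and 2278 in these settings. The list count was 22 to 33 without a labelling reaction, and 8 of the 62 genes that have a second probe set fell on it. The shares of 17.0% and 11.9% belong to the brightest probe sets in the main fit, and those on second probe sets are not given here. The rising count of 7 was 3 without the e12.5 or the e13.5 pool, 4 without the e14.5 pool, 1 without the e16.5 pool, 3 on second probe sets and 4 to 7 without a labelling reaction.

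The step at e16.5 was made downward by 6 probe sets, by 3 after quantile normalization, 2 with cyclic loess, 12 at 1.2-fold, 0 at 2-fold and 4 to 7 without a labelling reaction. The share of all probe sets after either normalization or without a reaction is not given here. At 1.2-fold 4 were lower at e14.5, 5 lower at e15.5 and 1 higher at e15.5. The causes of these moves were not tested. Dim probe sets have no known background here, so their changes can be understated.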
